A study of Mus musculus with 12 samples.

Results

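RNA of wild-type (WT) mouse spermatocytes at pachytene was compared with that of WT spermatocytes at leptotene and zygotene (LZ), which share 1 sorted fraction. The comparison used 6 of the 12 libraries of the study, 3 of LZ and 3 of pachytene, and every gene of the table was read on 2 scales. All cells came from C57BL/6 mice and were isolated by fluorescence-activated cell sorting, after which their purity was checked, per the labels. The other 6 libraries carried the label Rnaseh1 knock-out, 3 at each stage, and entered only the estimate of the spread and 1 comparison of stage changes in the 4 marker genes and Rnaseh1. Rnaseh1 encodes RNase H1, an enzyme that digests RNA where it is paired with DNA. No age, number of animals or sorting marker is given in the labels, and nothing in them says that replicates came from separate animals, so p-values measure the spread between these libraries, which may be technical.

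During leptotene and zygotene, programmed DNA breaks form along the chromosomes, and recombinases use the homologous chromosome to repair them. At pachytene the homologs are joined along their length by the synaptonemal complex, some breaks mature into crossovers, and the X and Y chromosomes are packed into a silenced sex body. Pachytene cells are also known for a broad transcriptional programme, driven in part by the transcription factor A-MYB, which covers the piRNA pathway and many genes whose products are used later in the spermatid.

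The stage labels were read against 4 marker genes. Piwil1 and Tdrd5, 2 genes of the piRNA pathway, mark pachytene, and Dmc1 and Prss50 mark LZ. The 250 bases before the annotated start of each are shown because A-MYB is known to act at promoters of pachytene genes. The sequences are from RefSeq on GRCm38.p6 and read 5′ to 3′ on the strand of the gene. Capitals mark matches on either strand to the 6-letter words CAACNG and TAACNG, which a MYB protein can recognise. The words differ in their first letter, so 1 position cannot match both on the same strand.
Piwil1 (chr5:128735996-128736245, plus strand): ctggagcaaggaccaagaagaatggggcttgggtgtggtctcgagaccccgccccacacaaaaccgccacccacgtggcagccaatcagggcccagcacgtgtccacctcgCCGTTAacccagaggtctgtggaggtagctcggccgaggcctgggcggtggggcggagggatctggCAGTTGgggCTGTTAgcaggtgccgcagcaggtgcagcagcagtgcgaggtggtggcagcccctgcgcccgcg
Tdrd5 (chr1:156303349-156303598, minus strand): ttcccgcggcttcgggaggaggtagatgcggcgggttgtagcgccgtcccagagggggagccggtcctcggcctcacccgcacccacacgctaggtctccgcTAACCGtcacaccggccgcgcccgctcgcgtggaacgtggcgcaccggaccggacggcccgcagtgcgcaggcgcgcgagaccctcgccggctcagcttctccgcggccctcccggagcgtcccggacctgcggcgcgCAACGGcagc
Dmc1 (chr15:79605110-79605359, minus strand): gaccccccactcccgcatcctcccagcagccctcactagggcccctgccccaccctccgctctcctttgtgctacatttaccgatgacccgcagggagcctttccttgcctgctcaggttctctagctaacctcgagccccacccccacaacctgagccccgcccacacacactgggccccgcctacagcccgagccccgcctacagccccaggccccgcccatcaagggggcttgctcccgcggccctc
Prss50 (chr9:110857714-110857963, plus strand): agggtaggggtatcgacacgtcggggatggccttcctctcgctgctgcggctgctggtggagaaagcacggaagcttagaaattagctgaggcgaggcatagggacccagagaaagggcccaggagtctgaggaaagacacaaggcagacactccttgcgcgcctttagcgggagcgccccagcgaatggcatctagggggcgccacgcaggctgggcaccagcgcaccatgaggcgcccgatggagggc
The Piwil1 window held 3 matches, whose first bases lie 139, 73 and 64 bases before the start. The Tdrd5 window held 2, at 148 and 10 bases. The windows of Dmc1 and Prss50 held 0. Prss50 has 2 such windows, of which 1 is shown, and both held 0. Outside the 4 markers, the matches did not follow the stage of the gene. Tdrd1, which rose in pachytene, held 0 in its 3 windows. Prdm9, which fell, held 1 match in 1 of its 2 windows, 236 bases before the start. Among the 9872 genes tested that have exactly 1 such window, 41.3% held at least 1 match, so a single match is common. A match is a description of the letters, and no binding was measured here.

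Values were deposited as FPKM, a fragment count relative to transcript length and sequencing depth, and the authors put the libraries on a common scale with added ERCC RNA. This spike-in scale reads the RNA of a gene against the spike-in. The second scale is the value per 1000000 of the sum of the library's own column, called the share, which removes any factor common to a library. The column sum was 885259, 803987 and 609831 FPKM in LZ replicates 1, 2 and 3, and 3319970, 4063320 and 4183730 FPKM in pachytene replicates 1, 2 and 3. All 3 pachytene sums lay above all LZ sums, and their mean was 5.03-fold higher (exact two-sided permutation p = 0.1, the smallest that 3 against 3 libraries allow). In such bulk samples, more cells of a type and more RNA per cell cannot be told apart. Within a group, log2 values of 2 libraries correlated across genes at r of 0.968 to 0.975. The number of fragments behind each value is unknown, so no limit of detection is given.

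Of 15400 genes tested, 12455 (80.9%) rose on the spike-in scale at an adjusted p under 0.05 and 75 (0.487%) fell. By share, 2103 (13.7%) rose and 3829 (24.9%) fell. Across all genes tested, the median log2 change was 1.64 on the spike-in scale and -0.21 by share. When each library was instead divided by its median ratio to the others, 3111 (20.2%) rose and 2780 (18.1%) fell, with a median of -0.01. Combining the scales left 2103 genes (13.7%) that rose on both and 74 (0.481%) that fell on both. A further 2246 (14.6%) rose on the spike-in scale and fell by share, 8106 (52.6%) rose on the spike-in scale with no call by share, and 1509 (9.8%) fell by share alone. The remaining 1361 (8.84%) had no call or another combination, besides 1 gene (0.00649%) that fell on the spike-in scale alone. All pachytene libraries lay above all LZ libraries for 83% of genes on the spike-in scale and below them for 0.864%, and by share for 17.7% and 34.5%. The counts of every list below are to be read beside these shares of all genes. Genes that moved the same way on both scales are therefore the ones whose direction does not depend on the choice between these 2. The scales are not separate support. Every pachytene sum was higher, so a rise by share brings a rise in FPKM, and a fall in FPKM brings a fall by share. All 2103 genes that rose by share rose on both scales, and 74 of the 75 that fell on the spike-in scale fell on both.

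The 4 marker genes moved as their stage labels say on both scales. Piwil1, whose product MIWI binds piRNAs, stood at 16.3, 27.7 and 24.0 FPKM in LZ and at 924, 605 and 870.1 FPKM in pachytene. The lowest pachytene library was far above the highest LZ library, and the means differed 35.3-fold (log2 change 5.09, SE 0.24, adjusted p = 2.36e-08). By share Piwil1 rose from 30.7 ± 11 to 212 ± 64.8 per 1000000 (SD, n = 3), or 6.89-fold. Tdrd5, a tudor-domain protein of the granules that process piRNAs, stood at 16.4, 22.2 and 18.4 FPKM in LZ and at 345, 252 and 429.7 FPKM in pachytene. Its means differed 18.0-fold in FPKM and 3.52-fold by share, with no overlap between stages.

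Dmc1, the recombinase used only in meiosis, stood at 65.3, 67.0 and 48.2 FPKM in LZ and at 15.9, 23.3 and 20.4 FPKM in pachytene. It was thus lower in every pachytene library although their sums were higher (log2 change -1.55, SE 0.32, adjusted p = 0.000488), and by share it was 15.3-fold higher in LZ. Prss50, a testis-specific protease, stood at 470.1, 401 and 329 FPKM in LZ and at 52.7, 93.3 and 87.6 FPKM in pachytene. Its share was 523 ± 21.6 per 1000000 in LZ and 19.9 ± 3.64 in pachytene, 26.3-fold higher in LZ. Rnaseh1 itself is a case where the scales part. It stood at 16.1, 20.5 and 16.8 FPKM in LZ and at 52.7, 51.7 and 56.8 FPKM in pachytene, a 3.02-fold rise, while its share went from 23.7 ± 4.94 to 14.1 ± 1.63 per 1000000 (log2 change -0.70, SE 0.24, adjusted p = 0.0381). Without LZ replicate 2 or 3, or pachytene replicate 2 or 3, the fall by share was not called (adjusted p = 0.101, 0.127, 0.0985 and 0.0970).

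**Figure D1:**
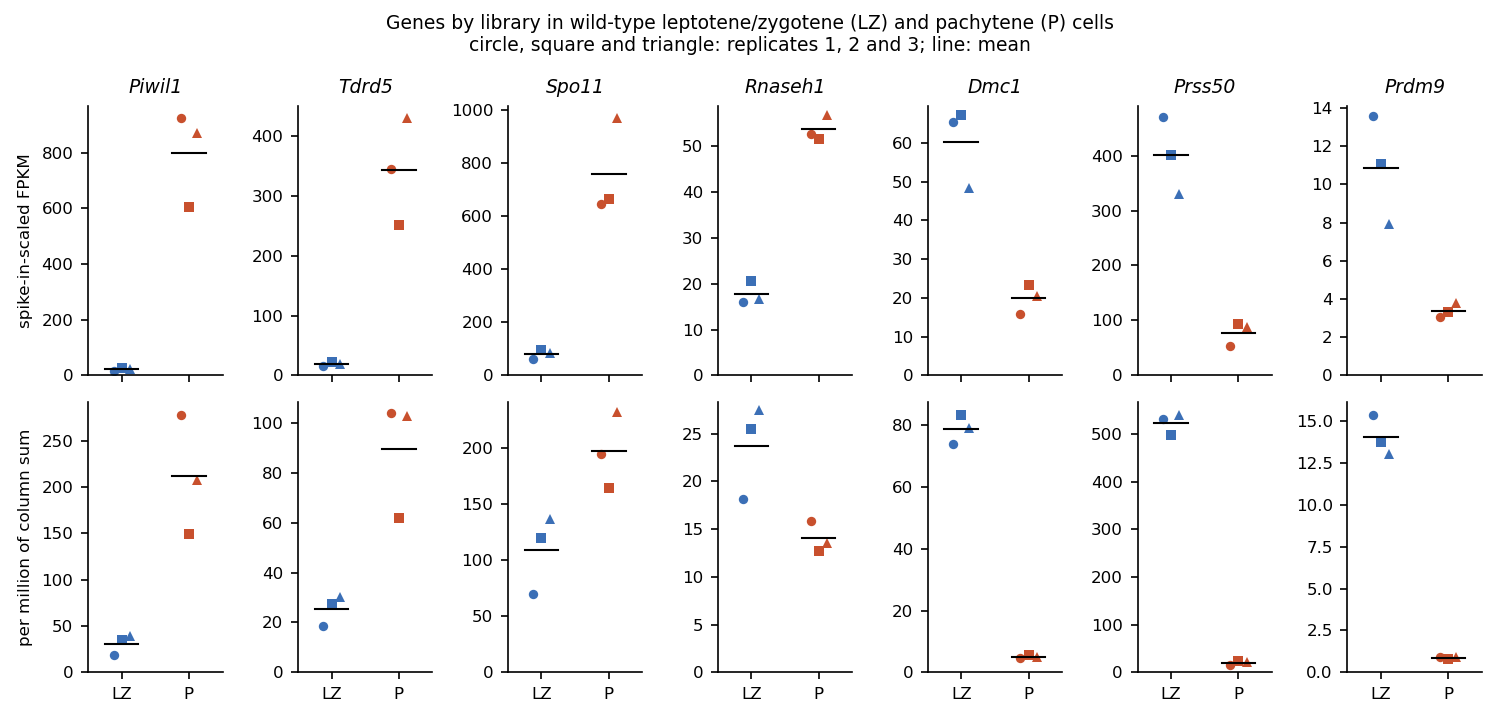
Values of 7 genes in each library, in spike-in-scaled FPKM in the upper row and per 1000000 of the column sum in the lower row, with blue for LZ, red for pachytene and a line at the mean of 3 libraries. Piwil1, Tdrd5 and Spo11 were higher in all pachytene libraries on both scales, Dmc1, Prss50 and Prdm9 were lower on both, and Rnaseh1 was higher in FPKM and lower by share.

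The leptotene and zygotene list held 22 genes. On the spike-in scale 8 rose and 6 fell, and by share 2 rose and 20 fell. The 2 that rose by share, Spo11 and Psmc3ip, are given further below. The 6 that fell on the spike-in scale were among the 74 genes that fell on both. Of the genes named next, Gal3st1, Rbpms2, Rhox13, Fmr1nb and Rad51ap2 are not in this list. Besides Dmc1 and Prss50, Prdm9 fell, the histone methyltransferase that places the breaks. It stood at 13.6, 11 and 7.94 FPKM in LZ and at 3.06, 3.30 and 3.80 FPKM in pachytene, and its share was 15.9-fold higher in LZ. Gal3st1, the sulfotransferase that makes the seminolipid of germ cells, stood at 33.3, 23.5 and 25.8 FPKM in LZ and at 4.09, 6.14 and 5.69 FPKM in pachytene. No library of one stage overlapped the other for either gene. Rbpms2, an RNA-binding protein, went from 34.4 ± 6.94 to 12.0 ± 1.97 FPKM. Esx1, an X-linked homeobox gene, stood at 59.6, 32.3 and 30.4 FPKM in LZ and at 7.61, 0.916 and 3.46 FPKM in pachytene, which made its share 47.0-fold higher in LZ. The X-linked Rhox13, a homeobox gene of the Rhox cluster, went from 87.2 ± 24.1 to 24.0 ± 3.25 FPKM, and its call on the spike-in scale was lost without LZ replicate 1 or pachytene replicate 1 (adjusted p = 0.0660 and 0.0510). The X-linked Fmr1nb went from 439 ± 50.2 to 197 ± 8.33 FPKM. Outside the rule for named genes, and chosen after its values were seen, Rad51ap2 also fell on both scales, from a mean of 26.5 to 10.5 FPKM. Without LZ replicate 1 the count of genes that fell on both scales was 45.

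Genes of break formation were lower by share with 1 exception. Of the 9 tested, 1 rose and 8 fell by share, and on the spike-in scale 4 rose and 1 fell. The median log2 change of the 9 was -0.09 on the spike-in scale, against 1.64 for all genes. The exception was Spo11, the enzyme that cuts the DNA. It stood at 61.8, 96.2 and 83.3 FPKM in LZ and at 645, 665 and 971 FPKM in pachytene, 9.46-fold higher, and rose 1.81-fold by share (adjusted p = 0.00665). Its partner subunit TOPOVIBL, listed as Gm960, stood at 12.2, 16.5 and 11.7 FPKM in LZ and at 6.41, 12.8 and 7.70 FPKM in pachytene. The stages overlapped in FPKM (adjusted p = 0.105), and by share Gm960 was 7.74-fold higher in LZ. The 2 subunits of the cutting complex thus had opposite calls by share. Zcwpw1, a reader of the histone marks that PRDM9 makes, stayed at 90.3 ± 10.4 and 85.1 ± 15.5 FPKM and was 5.43-fold higher by share in LZ.

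Of 22 strand exchange genes tested, 17 rose and 1 fell on the spike-in scale, where 80.9% and 0.487% of all genes did. By share, where 13.7% of all genes rose and 24.9% fell, 1 rose and 9 fell (4 and 6 under median-ratio scaling). That scaling divides each library by the median ratio of its genes to their geometric means, in place of the column sum. Psmc3ip and Mnd1 encode HOP2 and MND1, which work as 1 complex that helps the recombinases. Psmc3ip stood at 215, 268 and 211 FPKM in LZ and at 2307, 2670.3 and 2960.2 FPKM in pachytene, a rise of 11.4-fold in FPKM and 2.23-fold by share (adjusted p = 0.000137). Mnd1 stood at 49.7, 52.6 and 37.1 FPKM in LZ and at 34.6, 66.4 and 42.5 FPKM in pachytene. Its FPKM overlapped between stages, and its share was 4.94-fold higher in LZ. MEIOB, listed as 4930528F23Rik, a single-strand DNA-binding protein of meiosis, stood at 110 ± 5.21 and 124 ± 25.7 FPKM, and its share was 4.62-fold higher in LZ.

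Of 14 crossover genes tested, 10 rose and 0 fell on the spike-in scale, where 80.9% and 0.487% of all genes did. By share, where 13.7% of all genes rose and 24.9% fell, 3 rose and 6 fell (5 and 5 under median-ratio scaling). The 3 that rose by share were Ccnb1ip1, Cntd1 and Mlh3. Cntd1, a cyclin-like protein, stood at 37.0, 42.2 and 39.5 FPKM in LZ and at 298, 317 and 522 FPKM in pachytene, and its share rose 1.84-fold. Ccnb1ip1 encodes HEI10 and rose 10.3-fold in FPKM and 2.01-fold by share. Mlh3, a subunit of the nuclease that resolves crossovers, rose 9.33-fold in FPKM and 1.79-fold by share. By share the calls of Ccnb1ip1 and Mlh3 were lost without LZ replicate 1 (adjusted p = 0.0754 and 0.0588) or pachytene replicate 3 (0.0571 and 0.0761), and that of Mlh3 also without LZ replicate 2 (0.0653). In each of the fits without LZ replicate 1 or pachytene replicate 3, 1 crossover gene rose by share. Msh5 and Tex11 were among the 6 that fell by share. Msh5, a subunit of the MutS-gamma complex that stabilises crossover intermediates, was at 18.6 ± 6.50 and 23.7 ± 6.22 FPKM and 3.86-fold higher by share in LZ. The X-linked Tex11 was at 47.7 ± 10.9 and 29.3 ± 5.16 FPKM and 8.27-fold higher by share in LZ.

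All 17 genes of the synaptonemal complex and chromosome axis rose on the spike-in scale, while 2 rose and 9 fell by share (3 and 5 under median-ratio scaling). Syce1, a central element protein, stood at 304, 468 and 343 FPKM in LZ and at 2706, 3159.7 and 4273 FPKM in pachytene, with a share 1.76-fold higher in pachytene. Another central element gene, Syce2, stood at 621, 635 and 524 FPKM in LZ and at 1051, 1058 and 979.8 FPKM in pachytene, with a share 2.90-fold higher in LZ. Both rose without overlap in FPKM, Syce1 by 9.10-fold and Syce2 by 1.73-fold. Spdya, which activates CDK2 at telomeres, rose 9.53-fold in FPKM and 1.81-fold by share. Hormad2, an axis protein that leaves synapsed chromosomes, rose 2.16-fold in FPKM and was 2.45-fold higher by share in LZ.

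Of 16 cohesin genes, 11 rose and 1 fell on the spike-in scale, and 0 rose and 10 fell by share (1 and 7 under median-ratio scaling). The one that fell on both scales was Rad21l, a meiotic kleisin, at 4.81, 4.58 and 1.92 FPKM in LZ and 0.668, 0.708 and 2.42 FPKM in pachytene. The third libraries overlap, so its mean rests on low and uneven values. Smc3, a core cohesin subunit, was at 39.8 ± 7.62 and 44.1 ± 1.48 FPKM, 4.5-fold higher by share in LZ, and Esco2, which acetylates it, was 5.55-fold higher by share in LZ. Among 17 genes of the ATR and silencing list, 14 rose and 1 fell on the spike-in scale, and 0 rose and 8 fell by share (3 and 6 under median-ratio scaling). Scml2, an X-linked Polycomb protein of the sex body, was the one that fell on both, at 46.6, 37.6 and 41.2 FPKM in LZ and 25.8, 17.5 and 23.8 FPKM in pachytene. Its call on the spike-in scale was lost without any 1 of the LZ libraries or pachytene replicate 2 or 3 (adjusted p of 0.0526 to 0.116). By share Scml2 was 9.40-fold higher in LZ.

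**Figure D2:**
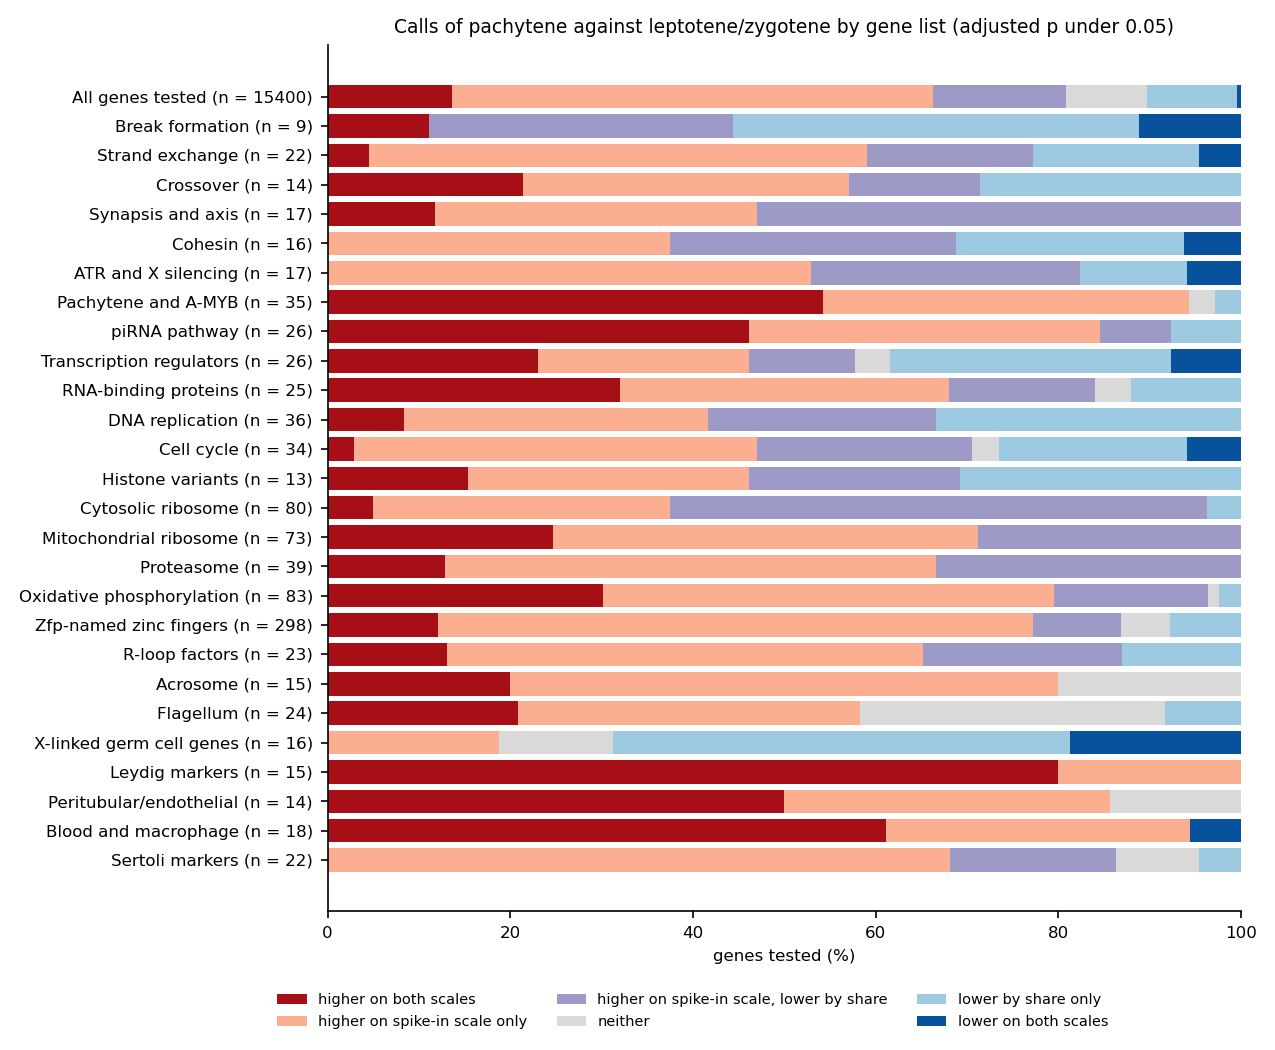
Percent of the genes tested in each list that were called in each class, with the number tested in brackets and all genes in the top bar. Red marks genes higher in pachytene on both scales, which make up 13.7% of all genes, and dark blue marks genes lower on both, which make up 0.481%.

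Pachytene and A-MYB genes and the piRNA pathway held the highest shares of germ cell genes that rose on both scales among the lists examined. These lists were chosen with their values known, so the counts describe them only. Of 35 genes of the pachytene list, 33 rose on the spike-in scale, 19 rose by share and 1, Brca1, fell by share. The median log2 change by share was 0.78, against -0.21 for all genes. The exception Brca1, a repair gene, was at 4.03 ± 0.721 and 6.35 ± 2.32 FPKM. Of the 22 with exactly 1 promoter window, 13 (59.1%) held a CAACNG or TAACNG match, against 41.3% of all genes with 1 window. The leptotene and zygotene list held one in 9 of 17 (52.9%) and the piRNA list in 5 of 15 (33.3%). Of 1356 such genes that rose on both scales, 47.5% held one.

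In the piRNA pathway 24 of 26 genes rose on the spike-in scale and 0 fell, and by share 12 rose and 4 fell. Tdrd1, a tudor protein that binds PIWI proteins, stood at 18.1, 21.8 and 19.0 FPKM in LZ and at 426, 386 and 512 FPKM in pachytene, 22.5-fold higher, and rose 4.40-fold by share. Piwil1 and Tdrd5 have been given above. Others that rose on both scales were Pld6, a mitochondrial protein of piRNA biogenesis, Ddx4, the germ cell helicase VASA, and Mael, with log2 changes by share of 1.47, 0.73 and 0.57. These 3 lie outside the rule for named genes. The other PIWI gene of the list, Piwil2, rose on the spike-in scale by 2.79 on the log2 scale and was not called by share (0.47). Fkbp6, a co-chaperone of PIWI loading, went the other way by share. It stood at 367, 325 and 274 FPKM in LZ and at 513, 881 and 802 FPKM in pachytene, and its share was 2.25-fold higher in LZ.

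Of 26 transcription regulators tested, 15 rose and 2 fell on the spike-in scale, and 6 rose and 13 fell by share. Tcfl5, a testis helix-loop-helix factor, stood at 60.7, 61.6 and 38.9 FPKM in LZ and at 780.5, 502 and 678 FPKM in pachytene, and rose 2.49-fold by share. Brdt, the testis bromodomain protein, went from 98.7 ± 11.2 to 922 ± 134 FPKM and rose 1.83-fold by share. The zinc finger factor Ovol1 rose 9.90-fold in FPKM and 2.0-fold by share. The 2 that fell on both scales were Zfy2 and the autosomal Ctcfl, a germ cell relative of CTCF that is named outside the rule, after its values were seen. Ctcfl stood at 4.99, 3.12 and 4.14 FPKM in LZ and at 1.71, 1.36 and 1.25 FPKM in pachytene, without overlap. The Y-linked zinc finger genes Zfy1 and Zfy2 both fell by share. Zfy2 stood at 11.1, 11.7 and 17.7 FPKM in LZ and at 5.18, 3.13 and 5.55 FPKM in pachytene, and fell on both scales. Zfy1 was at 8.35 ± 0.374 and 4.31 ± 1.47 FPKM (adjusted p = 0.0706) and fell by share, from 11.1 ± 1.76 to 1.11 ± 0.308 per 1000000. The 2 Zfy genes are close copies, so fragments may have been split between them. Taf7l, an X-linked relative of a TFIID subunit, was at 176 ± 19.6 and 109 ± 11.4 FPKM and 8.13-fold higher by share in LZ.

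Of 25 genes for RNA-binding proteins and translational control, 21 rose and 0 fell on the spike-in scale, and 8 rose and 7 fell by share. Csda, which encodes the cold-shock domain protein YBX3, stood at 320.2, 288 and 203 FPKM in LZ and at 4514, 2781 and 3476 FPKM in pachytene, and rose 2.73-fold by share. Ptbp2, a splicing regulator, rose 10.8-fold in FPKM and 2.13-fold by share. Dazl, a translation factor of germ cells, stood at 557, 458 and 439 FPKM in LZ and at 453, 451 and 559 FPKM in pachytene. Those FPKM overlap throughout, and the share of Dazl was 5.03-fold higher in LZ. Cpeb1, which controls polyadenylation in the cytoplasm, was 7.12-fold higher by share in LZ, and Elavl2 8.38-fold.

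DNA replication genes were mostly lower by share. Of 36 tested, 24 rose and 0 fell on the spike-in scale, and 3 rose and 21 fell by share (5 and 19 under median-ratio scaling). Rrm2, the ribonucleotide reductase subunit made in S phase, stood at 50.9, 49.5 and 38.8 FPKM in LZ and at 23.6, 28.6 and 38.6 FPKM in pachytene. It missed the call in FPKM (adjusted p = 0.054) and was 7.82-fold higher by share in LZ. Fen1, the flap nuclease, was 6.72-fold higher by share in LZ and Mcm5, a helicase subunit, 5.90-fold. Against these, Gins1, another helicase subunit, stood at 61.9, 86.6 and 63.8 FPKM in LZ and at 518, 732 and 665 FPKM in pachytene, and rose 1.76-fold by share. The other two that rose by share, Pcna and Chaf1a, did so by 1.29-fold and 1.55-fold. The call of Pcna was lost in every fit that left out 1 library except the one without LZ replicate 3 (adjusted p of up to 0.128), and that of Chaf1a in every one except those without LZ replicate 1 or pachytene replicate 2 (up to 0.142). Without pachytene replicate 1 or 3, 1 replication gene rose by share.

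Among 34 cell cycle genes, 24 rose and 2 fell on the spike-in scale, and 1 rose and 17 fell by share (4 and 17 under median-ratio scaling). The one that rose by share was Cks2, a CDK-binding subunit. It stood at 848, 812 and 628 FPKM in LZ and at 5493, 6509 and 6849 FPKM in pachytene, and its share rose 1.63-fold. The 2 that fell on both scales were cyclins. Ccnb3, an X-linked cyclin of early meiosis, stood at 13.8, 12.8 and 14.6 FPKM in LZ and at 2.81, 3.12 and 4.88 FPKM in pachytene, 19.9-fold higher by share in LZ. Ccnd1, the G1 cyclin D1, stood at 20.8, 12.2 and 11.9 FPKM in LZ and at 6.99, 6.77 and 6.13 FPKM in pachytene. Neither cyclin overlapped between stages.

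Of 13 genes for histone variants, 9 rose and 0 fell on the spike-in scale, and 2 rose and 7 fell by share (4 and 7 under median-ratio scaling). H2afy encodes macroH2A1, a variant known from silent chromatin and the sex body. It stood at 32.4, 38.3 and 33.5 FPKM in LZ and at 493, 518 and 576 FPKM in pachytene, 15.2-fold higher, and rose 2.97-fold by share. H2afz, which encodes H2A.Z, went from 1355 ± 279 to 11694 ± 1765 FPKM and rose 1.68-fold by share. Cenpa, the centromeric H3 variant, was at 146 ± 33.2 and 98.2 ± 32.7 FPKM and 7.53-fold higher by share in LZ. Hist1h2ba, the testis H2B, was at 36.8 ± 3.07 and 45.7 ± 17.1 FPKM and 4.22-fold higher by share in LZ. Histone genes form families of near-identical copies, and those without a polyadenylated tail would be missed here, so their values are uncertain.

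Housekeeping machines rose on the spike-in scale and divided by share, and there the scaling decides the split. Of 80 cytosolic ribosomal protein genes, 77 rose on the spike-in scale, while 4 rose and 50 fell by share and 4 rose and 16 fell under median-ratio scaling. Their summed share was 12.3, 9.93 and 9.63% in LZ and 7.79, 7.99 and 6.99% in pachytene. All 3 pachytene libraries lay below all LZ libraries (exact permutation p = 0.1). Mitochondrial ribosomal genes numbered 73, of which all rose on the spike-in scale and 18 rose and 21 fell by share (21 and 7 under median-ratio scaling). Mrpl24 went from 99.4 ± 20.7 to 1036 ± 198 FPKM and rose 2.06-fold by share, while Mrps6 was 3.13-fold higher by share in LZ. All 39 proteasome genes rose on the spike-in scale. By share, where 13.7% of all genes rose and 24.9% fell, 5 were higher and 13 lower (8 and 4 under median-ratio scaling). Psmb6, a catalytic subunit, went from 486 ± 90.7 to 3623 ± 475 FPKM and rose 1.45-fold by share. Without pachytene replicate 3, 3 proteasome genes rose by share.

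Nuclear genes of oxidative phosphorylation leaned the other way from the cytosolic ribosome. Of 83 tested, 80 rose on the spike-in scale, and 25 rose and 16 fell by share (36 and 8 under median-ratio scaling). Their summed share was 6.77, 7.32 and 6.99% in LZ and 8.17, 9.58 and 8.12% in pachytene, higher in every pachytene library. The 3 members that rose most by share were the testis forms Cyct, Cox8c and Cox6b2, described with their somatic relatives below. Ndufa1, an X-linked subunit of complex I, was at 1735 ± 255 and 2298 ± 385 FPKM and 3.82-fold higher by share in LZ. Atp5g2, a subunit of the ATP synthase ring, was 3.67-fold higher by share in LZ. Genes with Zfp names, mostly zinc finger proteins, numbered 298, of which 259 rose on the spike-in scale. By share, where 13.7% of all genes rose and 24.9% fell, 36 rose and 52 fell (62 and 37 under median-ratio scaling). These counts by share rest on single libraries: 22 rose without LZ replicate 1 or pachytene replicate 1 and 19 without pachytene replicate 3, and 31 fell without LZ replicate 1 and 32 without pachytene replicate 2. Zfp389 had the largest rise by share among them, at 13.8, 29.8 and 16.0 FPKM in LZ and 370.3, 359 and 483 FPKM in pachytene, or 4.0-fold by share.

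R-loops are structures in which RNA pairs with one DNA strand, and the study was about them, per its title. The list of factors that form, bind or remove R-loops held 23 genes. On the spike-in scale 20 rose and 0 fell, where 80.9% and 0.487% of all genes did. The median log2 change by share was -0.14, against -0.21 for all genes. By share, where 13.7% of all genes rose and 24.9% fell, 3 of the list rose and 8 fell (6 and 4 under median-ratio scaling). In each of the fits without LZ replicate 1 or pachytene replicate 3, 1 rose by share. Thoc7, of the THO complex that packages nascent RNA, stood at 178, 234 and 165 FPKM in LZ and at 2194, 3242 and 2912 FPKM in pachytene, and rose 2.82-fold by share. Rnaseh2b, a subunit of RNase H2, stood at 82.5, 61.8 and 55.5 FPKM in LZ and at 56.0, 93.7 and 72.5 FPKM in pachytene, overlapping in FPKM, and was 4.56-fold higher by share in LZ. The X-linked Thoc2, another THO subunit, was at 10.7 ± 2.40 and 9.90 ± 3.58 FPKM and 5.27-fold higher by share in LZ. The other subunits of RNase H2, added after their values were seen, rose in FPKM and were not called by share. Rnaseh2a rose 5.24-fold in FPKM and had a share of 214 ± 14.7 and 223 ± 25.0 per 1000000 in LZ and pachytene. Rnaseh2c rose 5.43-fold in FPKM and had a share of 92.0 ± 11.9 and 99.1 ± 21.4 per 1000000.

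X-linked genes departed from the autosomes. Of 612 tested, 262 rose and 25 fell on the spike-in scale, and 7 rose and 316 fell by share. The median log2 change by share was -0.96 on the X and -0.19 on the autosomes, and on the spike-in scale it was 0.71 and 1.68. X-linked genes made up 2.06, 1.68 and 1.95% of the column sum in LZ and 0.769, 0.709 and 0.617% in pachytene. No library of one stage overlapped the other (exact permutation p = 0.1), and the mean share was 2.71-fold higher in LZ. Their summed FPKM nevertheless went from 14536 ± 3266 to 26718 ± 1799. Within each library the median X-linked gene stood at 0.575, 0.573 and 0.692 of the median autosomal gene in LZ and at 0.294, 0.268 and 0.257 in pachytene, a ratio that needs no scaling between libraries.

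Of the 74 genes that fell on both scales, 25 (33.8%) are X-linked, while the X holds 3.97% of the genes tested. Of the 2103 that rose on both, 7 (0.333%) are X-linked. Of 16 X-linked genes known for germ cell expression, 3 rose and 3 fell on the spike-in scale, 0 rose and 11 fell by share, and the median log2 change by share was -2.53. Without LZ replicate 1, 1 of them fell on the spike-in scale, and 7 did in a fit of the 6 WT libraries alone. On the Y, 8 genes were tested, of which 0 rose and 7 fell by share. The Y share of the column sum was 0.0181, 0.0158 and 0.0227% in LZ and 0.00443, 0.00344 and 0.00292% in pachytene.

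The 7 X-linked genes that rose by share were Bgn, Slc38a5, Rps4x, Cxx1c, Maob, Armcx6 and Srpx2. Bgn, which encodes the matrix proteoglycan biglycan, stood at 0.0861, 0.424 and 0 FPKM in LZ and at 38.9, 29.6 and 32.0 FPKM in pachytene. Slc38a5, an amino acid transporter, stood at 1.03, 0.863 and 1.06 FPKM in LZ and at 59.5, 69.5 and 60.6 FPKM in pachytene. Rps4x, a ribosomal protein gene, stood at 19.2, 10.8 and 7.17 FPKM in LZ and at 134, 188 and 178 FPKM in pachytene. All 3 were higher in every pachytene library. Cxx1c, Maob and Srpx2 were listed at 0 in all LZ libraries and stood between 0.362 and 6.11 FPKM in pachytene, and Armcx6 went from 0.125 ± 0.138 to 3.62 ± 0.861 FPKM. By share, Maob lost its call without pachytene replicate 3 (adjusted p = 0.0595), and Srpx2 lost it in every fit that left out 1 library except the one without pachytene replicate 1 (0.0738 to 0.149). Rps4x has processed copies elsewhere in the genome, so its value is uncertain. Of the somatic marker lists given below, 12 of 15 Leydig, 11 of 18 blood and macrophage and 7 of 14 peritubular and endothelial genes rose by share. Of 22 Sertoli genes, 0 rose and 5 fell by share. The part of somatic cells in the rise of these X-linked genes was not tested.

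**Figure D3:**
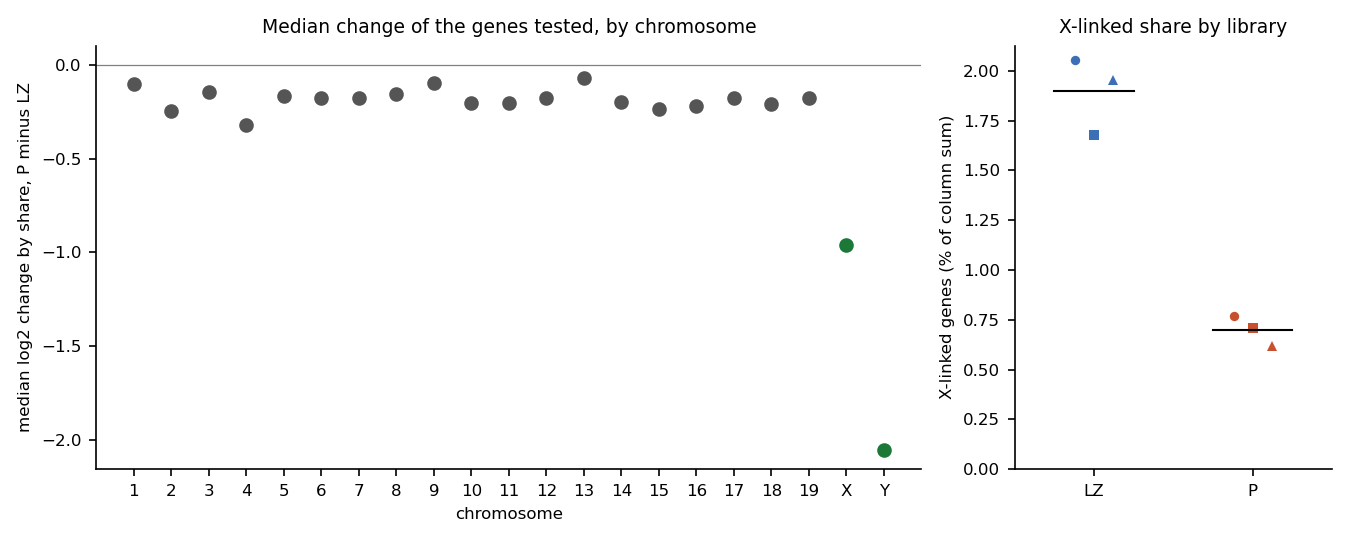
Left, the median log2 change by share of the genes tested on each chromosome, and right, the percent of the column sum from X-linked genes in each library, with a line at the mean of 3. The X (-0.96) and Y (-2.05) lie below all 19 autosomes, and all pachytene libraries lie below all LZ libraries.

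Several X-linked housekeeping genes have an autosomal relative, in most cases an intronless retrocopy, that is used in spermatocytes. For 13 such pairs the FPKM of the autosomal gene was divided by that of its X-linked relative in the same library, which cancels any factor of the library. These ratios were added after the values were seen and describe the pairs only. In 10 of 13 pairs all pachytene ratios lay above all LZ ratios and in 0 below, where 51.2% of all pairs of an autosomal and an X-linked gene tested do so upward and 6.43% downward. The median log2 difference of the ratio was 2.64, with a range of -0.30 to 3.89. By share, 7 of the 26 genes rose and 12 fell, no X-linked member rose and no autosomal member fell. With 1 library left out, 6 to 7 rose and 10 to 12 fell by share. Fam50b lost its call by share without LZ replicate 1 or 3 (adjusted p = 0.130 and 0.115) and without pachytene replicate 2 or 3 (0.0947 and 0.142).

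Prps1l1 over Prps1, 2 forms of the enzyme that makes the phosphoribosyl precursor of nucleotides, had ratios of 3.30, 3.96 and 2.76 in LZ and 45.8, 57.4 and 44.4 in pachytene. Prps1l1 rose from 137 ± 30.6 to 1436 ± 291 FPKM, while Prps1 was at 40.9 ± 1.77 and 29.6 ± 7.98 FPKM. Nxt1 over Nxt2, adaptors of mRNA export, had ratios of 25.9, 26.0 and 16.5 in LZ and 235, 316 and 255 in pachytene. Cetn1 over Cetn2, the centrins of centrioles, went from 8.61 ± 2.02 to 59.1 ± 5.78, and Pdha2 over Pdha1, subunits of pyruvate dehydrogenase, from 15.6 ± 3.88 to 65.6 ± 13.0. Cstf2t over Cstf2, which act in 3′ end formation of mRNA, went from 1.01 ± 0.122 to 8.17 ± 0.480, the narrowest pair among them. Rbmxl2 over Rbmx, splicing regulators, went from 1.64 ± 0.649 to 15.8 ± 4.27, and Fam50b over Fam50a from 3.43 ± 0.955 to 28.8 ± 3.51.

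Ribosomal proteins had such pairs as well. Rpl10l over Rpl10 had ratios of 0.671, 1.39 and 1.04 in LZ and 4.44, 4.48 and 6.38 in pachytene. Rpl39l over Rpl39 had ratios of 1.49, 2.16 and 2.11 in LZ and 9.80, 11.5 and 14.5 in pachytene. All pachytene ratios of both pairs lay above all LZ ratios. Pgk2 over Pgk1, the glycolytic kinases, went from 9.93 ± 2.01 to 22.0 ± 1.53. The other 3 pairs overlapped between stages. Utp14b over Utp14a had 0.515, 0.761 and 0.414 in LZ and 2.2, 0.667 and 1.60 in pachytene, Ubl4b over Ubl4 went from 5.48 ± 1.15 to 7.11 ± 0.971, and G6pd2 over G6pdx from 0.315 ± 0.0982 to 0.265 ± 0.129. Fragments from a gene and its copy can be assigned to either, so ratios of near-identical pairs are uncertain.

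**Figure D4:**
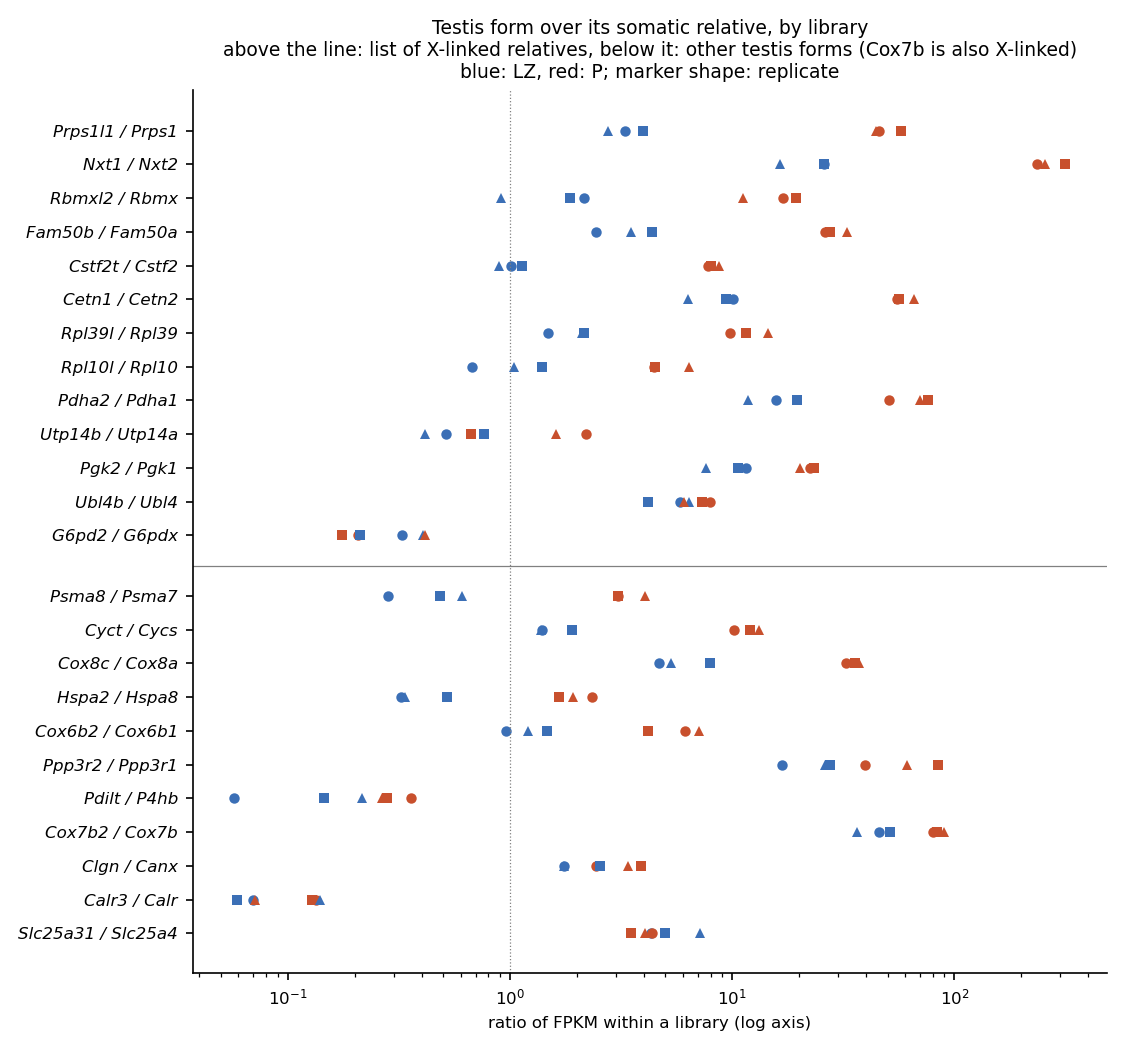
Ratio of the FPKM of a testis form to that of its somatic relative in each library on a log axis, with the 13 pairs listed for an X-linked relative above the line and other testis forms below it, among them Cox7b2 over the X-linked Cox7b, and with blue for LZ and red for pachytene. In 10 of the 13 pairs above the line and 8 of the 11 below it, all 3 pachytene ratios lie to the right of all 3 LZ ratios.

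Testis forms of other housekeeping genes were read in the same way. In 8 of 11 pairs all pachytene ratios lay above all LZ ratios and in 0 below, where 25.4% of all pairs of autosomal genes do so upward. In 1 of the 11, Cox7b2 over Cox7b, the relative is X-linked, and 51.2% is the share that applies to it. Cyct over Cycs, the testis and somatic cytochrome c, had ratios of 1.40, 1.90 and 1.39 in LZ and 10.1, 12.0 and 13.1 in pachytene. Subunits of cytochrome c oxidase behaved alike. Cox8c over Cox8a went from 5.98 ± 1.71 to 35.1 ± 2.31, Cox6b2 over Cox6b1 from 1.21 ± 0.252 to 5.80 ± 1.49, and Cox7b2 over Cox7b from 44.5 ± 7.60 to 84.5 ± 4.79. Cox8c was also among the most abundant genes of pachytene, at 19308, 35498 and 26655 FPKM. Psma8 over Psma7, 2 forms of a proteasome subunit, had ratios of 0.282, 0.484 and 0.611 in LZ and 3.06, 3.07 and 4.05 in pachytene, so that the testis form was below its relative at LZ and above it at pachytene in every library. The chaperone pair Hspa2 over Hspa8 did the same, with 0.323, 0.519 and 0.336 in LZ and 2.34, 1.66 and 1.92 in pachytene.

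The other 3 of these pairs overlapped between stages. Clgn over Canx went from 2.01 ± 0.453 to 3.24 ± 0.735, and the others were Calr3 over Calr and Slc25a31 over Slc25a4. Among glycolytic pairs, 3 of 6 ratios were higher in all pachytene libraries and 1 was lower, where 25.4% of all pairs of autosomal genes rise so. The 3 include Pgk2 over the X-linked Pgk1, already counted above, to which 51.2% applies. Ldhc over Ldha, the testis and muscle-type lactate dehydrogenases, had ratios of 8.80, 7.76 and 7.93 in LZ and 7.35, 8.04 and 6.92 in pachytene. Both genes rose on both scales, Ldhc from 2256 ± 436 to 26365 ± 3933 FPKM and Ldha from 277 ± 59.8 to 3569 ± 716 FPKM, so their balance overlapped between stages. Gapdhs over Gapdh went from 0.918 ± 0.195 to 2.37 ± 1.03, and Eno4 over Eno1 from 0.301 ± 0.101 to 0.864 ± 0.217. Aldoart2 over Aldoa went down from 0.410 ± 0.0409 to 0.227 ± 0.0335.

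Genes used in the spermatid were read as 3 lists. Where 80.9% of all genes rose on the spike-in scale, 12 of 15 acrosome genes did. Where 13.7% of all genes rose and 24.9% fell by share, 3 acrosome genes rose and 0 fell. Without LZ replicate 1, or pachytene replicate 1 or 3, 0 of them rose by share in limma, and a fit of the 6 WT libraries alone called 5 lower. Of 24 flagellum genes, 14 rose on the spike-in scale, and 5 rose and 2 fell by share (6 and 0 under median-ratio scaling). Their median log2 change by share was -0.85, against -0.21 for all genes. The 2 that fell by share were Akap3 and Smcp, 3.40-fold and 3.14-fold higher by share in LZ. The number that fell was 0 or 1 in every fit that left out 1 library and 11 in a fit of the 6 WT libraries alone. Rsph1, of the radial spokes, stood at 841, 1093 and 623 FPKM in LZ and at 8452, 12401 and 12413 FPKM in pachytene, and rose 2.57-fold by share. Spag6, of the central apparatus, rose 12.0-fold in FPKM and 2.38-fold by share, and Spag16, its partner there, 13.9-fold and 2.66-fold.

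Genes that pack the spermatid nucleus were abundant at both stages. Of 7 tested, 1 rose on the spike-in scale and 0 were called by share in limma with the spread of all 12 libraries. In a fit of the 6 WT libraries alone, 7 rose on the spike-in scale and 6 fell by share, so whether they are called depends on which libraries set the spread. Prm1, a protamine of the sperm nucleus, stood at 15197, 8211 and 6832 FPKM in LZ and at 19858, 21909 and 17457 FPKM in pachytene, with a share of 12861 ± 3762 and 5182 ± 922 per 1000000. It had the highest mean share of all genes in LZ, 1.29% of the column sum. Tnp2, a transition protein, stood at 6282, 3479 and 3213 FPKM in LZ and at 10969.7, 8565 and 7681 FPKM in pachytene. The 7 genes together made up 3.73, 2.17 and 2.53% of the LZ columns and 1.44, 1.17 and 0.936% of the pachytene columns. Protamines and transition proteins are known as products of the haploid spermatid. Their RNA was nevertheless abundant in both sorted fractions, whose purity was checked per the labels, and its source was not tested.

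Markers of somatic testis cells differed by stage too. The 15 Leydig markers summed to 201, 76.7 and 50.8 FPKM in LZ and to 3407, 11236 and 10028 FPKM in pachytene. All 15 rose on the spike-in scale and 12 rose by share, and 3 of them, Hsd17b3, Lhcgr and Hao2, were listed at 0 in all LZ libraries. Of the 15, 3 were at 1 FPKM or more in all LZ libraries and 14 in all pachytene libraries. The filter asked for 1 FPKM in at least 3 of 12 libraries, which pachytene values alone could meet. The counts of rises therefore only describe the list. Insl3, the peptide hormone of Leydig cells, stood at 12.3, 14.3 and 3.03 FPKM in LZ and at 2055, 8196 and 6879 FPKM in pachytene. Cyp17a1, which makes androgen precursors, was at or below 0.11 FPKM in LZ and at 120.3, 219 and 267 FPKM in pachytene. Pachytene replicate 1 was the lowest of the 3 for the summed list, for Insl3 and for Cyp17a1. As a share of the column the 15 genes made up 0.103 to 0.277% in pachytene.

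Of 18 blood and macrophage markers tested, 11 rose and 1 fell by share, and without LZ replicate 2 or pachytene replicate 2 the number that rose was 7. Their sum, over the 22 genes of the list, was 203, 36.0 and 32.4 FPKM in LZ and 565, 2375 and 2116 FPKM in pachytene. The one that fell on both scales was Cd3e, a T cell receptor component, from 5.91 ± 1.03 to 1.17 ± 0.599 FPKM. Peritubular and endothelial markers rose by share for 7 of 14, and the endothelial genes of the list stayed under 1 FPKM in every library (Pecam1, Cdh5, Kdr, Tek, Vwf and Emcn). Of the 22 blood and macrophage genes, 3 were at 1 FPKM or more in all LZ libraries and 16 in all pachytene libraries. For the 19 peritubular and endothelial genes these numbers were 4 and 12. Pachytene values alone could meet the filter here too, so these counts of rises also only describe the lists. Acta2, the smooth muscle actin of peritubular cells, was at 0.0382 to 0.452 FPKM in LZ and 106, 224 and 149.7 FPKM in pachytene. Of 22 Sertoli markers, 0 rose and 5 fell by share (0 and 3 under median-ratio scaling), and without LZ replicate 1 or pachytene replicate 2 the number that fell was 2. The Sertoli list made up 0.284, 0.228 and 0.206% of the LZ columns and 0.165, 0.157 and 0.133% of the pachytene columns. Without pachytene replicate 3, 3 Sertoli genes fell by share. Of 19 spermatogonial markers, 2 rose and 9 fell by share, and 1 rose in every fit that left out 1 library except the one without pachytene replicate 3. Id4, known from spermatogonial stem cells, was one that rose, at 7.62, 7.33 and 6.08 FPKM in LZ and 199, 159 and 177 FPKM in pachytene, and Crabp1 was 8.93-fold higher by share in LZ.

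**Figure D5:**
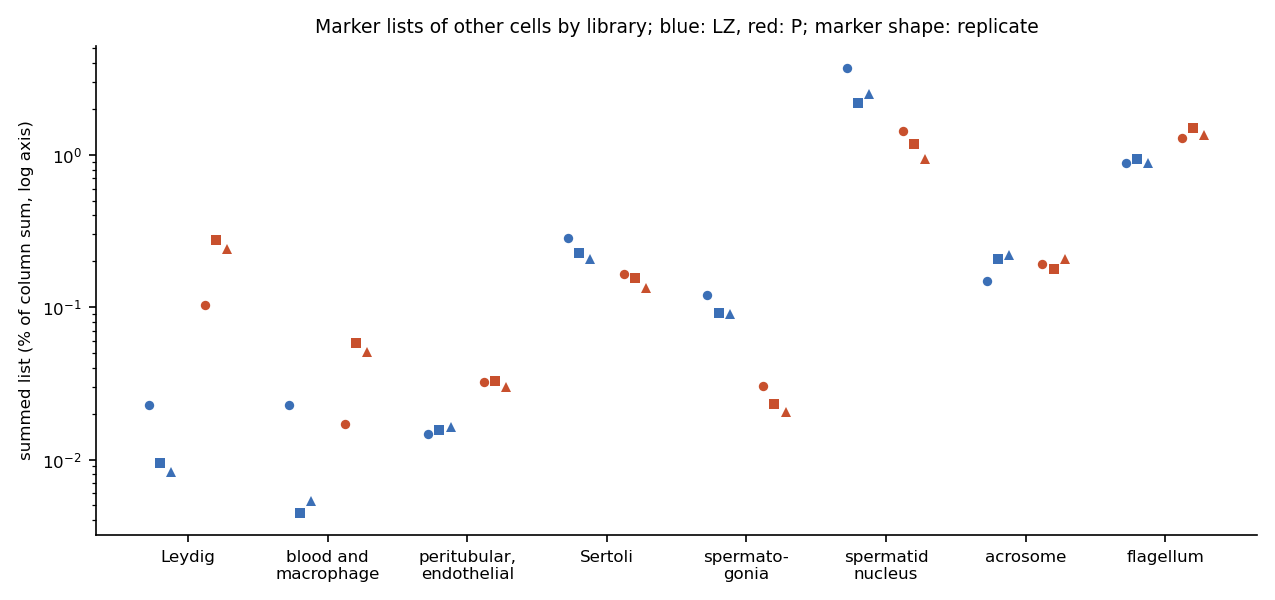
Summed value of 8 marker lists as a percent of the column sum in each library on a log axis, with blue for LZ, red for pachytene and a marker shape for each replicate. Leydig markers were higher in all pachytene libraries, genes of the spermatid nucleus, Sertoli cells and spermatogonia were lower in all of them, and acrosome genes overlapped.

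Somatic markers also lead the ranking of genes by change in share. Of the 10 genes with the largest rises, 7 stand in the Leydig, blood or peritubular lists: Insl3, Akr1cl, Cyp17a1, Hsd3b6, Ccl8, Lcn2 and Acta2. Akr1cl, an aldo-keto reductase, stood at 0.491, 0.991 and 0.0524 FPKM in LZ and at 226, 294 and 484 FPKM in pachytene. The others were Sct, which encodes the hormone secretin, and the microRNA loci Mir1892 and Mir3471-1. Sct stood at 0.931, 0 and 0.199 FPKM in LZ and at 131, 211 and 128 FPKM in pachytene. The column sums were also taken without the genes of the somatic, acrosome, flagellum and spermatid nucleus lists. By share 2066 genes then rose and 3905 fell, against 2103 and 3829 with them. The 10 largest falls by share were Mir1982, Esx1, Prss50, Cypt9, Rhox13, Gal3st1, Dmc1, Rbpms2, Fmr1nb and Snora81. Mir1892, Mir1982, Cypt9 and Snora81 each have values under 0.1 and above 50 FPKM within 1 stage (Mir1982 at 0, 0 and 684 FPKM in pachytene), and each lost its call by share in at least 2 fits that left out 1 library (adjusted p of up to 0.0875, 0.0658, 0.141 and 0.103). Short loci such as these give unstable FPKM, and their mature microRNAs are not captured by a polyadenylated library.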

How the data were processed

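Polyadenylated RNA of sorted spermatocytes was amplified and sequenced in paired ends, per the labels' protocols. The authors deposited 1 table of FPKM for 23235 genes, scaled by ERCC spike-in RNA, and TopHat2 2.1.1, Cufflinks 2.2.1 and build mm9 are named in the submitters' processing notes. The scaling formula, gene annotation and read counts per library are not given in the sources used here. Of the table's columns, 4 that name no sample were not used. Genes at 1 FPKM or more in at least 3 of 12 libraries (15400) were tested with limma 3.58.1 in R 4.3.3 on log2(value + 1), with 1 mean per group, a trended prior variance and Benjamini-Hochberg adjustment over all genes tested (threshold 0.05). Log2 changes are on that scale and understate the change of low genes, while folds are ratios of group means. The share is the value per 1000000 of the column sum. Chromosomes were taken from RefSeq by current symbol for 20652 genes and by older symbol for 2316. Ratios and library values were compared by exact two-sided permutation tests in scipy 1.17.1. The fit was tested on simulated data. Named genes were the 4 markers and Rnaseh1, the 10 largest changes by share in each direction without overlap, up to 3 members per list and direction, all members of pairs, and X-linked genes that rose by share. A few list members are not reported here and were left out of the lists. The members and lists were chosen with earlier results of these data known.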

Additional observations from a re-analysis of the deposited data

Results flagged for a closer look

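Stage changes of the 4 marker genes and Rnaseh1 were also compared between WT and the libraries labelled Rnaseh1 knock-out, by the interaction term in limma with Benjamini-Hochberg adjustment over all genes. The KO-labelled libraries held Rnaseh1 at 14.7 ± 3.62 FPKM in LZ and 80.2 ± 13.0 FPKM in pachytene (SD, n = 3). WT had 17.8 ± 2.39 and 53.7 ± 2.74 FPKM. The label could not be checked from the level of this gene. In 3 cases the stage change differed between the groups. Tdrd5 rose by 0.95 more on the log2 scale in the KO-labelled libraries on the spike-in scale (SE 0.35, adjusted p = 0.0460), and its difference by share was -0.28 (adjusted p = 0.686). By share the change of Dmc1 was lower by -1.70 (SE 0.34, adjusted p = 0.0171) and that of Prss50 by -2.23 (SE 0.48, adjusted p = 0.0220). On the spike-in scale those differences were -1.07 and -1.28 and did not pass (adjusted p = 0.0744 and 0.0793). Piwil1 and Rnaseh1 did not pass on either scale.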

How the results depend on the processing

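With a filter at 5 FPKM, which tests fewer genes, 44 genes fell on the spike-in scale and 43 on both scales. Leaving out 1 WT library at a time gave 45 to 83 genes that fell on the spike-in scale, 45 to 82 that fell on both and 1438 to 1914 that rose on the spike-in scale and fell by share, with the lowest value without LZ replicate 1 for the first pair and without LZ replicate 3 for the last (1466 without pachytene replicate 3). The other counts over all genes stayed within 1.5 times of the reported ones under every alternative run. Whether replicate numbers pair the libraries is not settled by these data, and the main fit used no pairing. Deviations of same-numbered LZ and pachytene libraries correlated at 0.163, 0.137 and 0.027 on the spike-in scale. By share they correlated at 0.158, 0.133 and 0.041. Those of different-numbered libraries correlated at -0.204 to 0.074 on the spike-in scale and -0.204 to 0.079 by share. With the replicate block 12665 genes rose and 77 fell on the spike-in scale, and 2121 rose and 3920 fell by share.

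Signs that changed belong to values near 0. By share, median-ratio scaling gave log2 changes of 0.072 for Canx, 0.23 for Cox7b, 0.078 for Pgk2 and 0.15 for Slc25a4, and quantile normalisation gave 0.24 for Cox7b, -0.0067 for Pecam1 and 0.060 for Slc25a4. The cause was not tested. With 1 library left out, log2 changes on the spike-in scale ranged from -0.36 to 0.023 for Cstf2, -0.091 to 0.11 for Dazl, -0.37 to 0.10 for Fam50a, -0.030 to 0.50 for Hist1h2ba, -0.38 to 0.038 for Mcm5, -0.26 to 0.21 for Mnd1, -0.043 to 0.32 for Rnaseh2b, -0.15 to 0.43 for Rpl39, -0.37 to 0.10 for Thoc2 and -0.22 to 0.043 for Zcwpw1. By share they ranged from -0.38 to 0.057 for Canx, -0.15 to 0.043 for Cox7b -0.16 to 0.25 for Rbmxl2, -0.019 to 0.14 for Rnaseh2a and -0.066 to 0.24 for Rnaseh2c, and the difference in the summed share of acrosome genes from -0.0215 to 0.0152 percentage points. None of these was called in the fit of all libraries on that scale. Fragment numbers are unknown, so limits set by depth cannot be given.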

Other observations

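The most abundant genes, named here outside the rule and after their values were seen, are those with the largest mean share of the column sum in each fraction. In LZ, Prm1 (1.29% of the column sum) was followed by Tmsb10, a thymosin (0.617%), and Fabp9, the testis fatty acid-binding protein (0.590%). In pachytene, Fabp9 led with 1.41 ± 0.322% (SD, n = 3), followed by Meig1, a gene needed for sperm formation (0.858%), Cox8c (0.697%), Calm2, a calmodulin gene (0.693%), and Ldhc (0.683%).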
